A study of Mus musculus with 6 samples.

Results

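The cytoskeleton and growth genes of young neurons were followed through early forebrain development in mice with and without the zinc-finger transcription factors Fezf1 and Fezf2. The set holds 10 genes named for what they do in a neuron that has just left the cell cycle: Dcx, Map1b, Map2 and Mapt, which encode microtubule-binding proteins, Tubb3, a tubulin, Stmn2 and Stmn3, stathmins, and Gap43, Rtn1 and Tagln3. Every probe set on the array that names exactly 1 of these genes was taken, which gave 23 probe sets of 34958 with a single symbol and 10 genes of 18194. RNA came from mouse forebrain cut by hand in front of the hind end of the lateral ventricles, in wild-type embryos and in Fezf1-/- Fezf2-/- embryos (the knockout, which lacks both genes), on day 9.5 (E9.5), day 10.5 (E10.5) or day 12.5 (E12.5) of embryonic life. There was 1 Affymetrix array for each genotype and age, 6 arrays in all. How many embryos gave each RNA is not stated, and p-values below measure only the spread between these arrays.

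A newborn neuron builds an axon and dendrites from microtubules, hollow polymers of tubulin that other proteins bind, bundle, cross-link or take apart. Doublecortin and the microtubule-associated proteins MAP1B, MAP2 and tau stabilise and space these polymers, while stathmins bind free tubulin and favour disassembly. The growth cone at the axon tip adds membrane and actin as it advances, and GAP-43 is one of its abundant membrane-attached proteins. In the forebrain these genes are widely used as markers of postmitotic neurons, as opposed to the dividing progenitors that line the ventricles. In bulk tissue, fewer neurons and less RNA per neuron cannot be told apart.

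Signals below are quantile normalized across arrays. Log2 differences were taken after adding a pseudocount of 6.5 to each signal, so the change of a dim probe set is understated, and folds are on that scale. Before normalization the median signal of an array ran from 14.2 to 37.1. Over all tested probe sets the wild-type and knockout arrays of an age correlated at 0.979 to 0.987, a description across probe sets that are not independent. From the youngest to the oldest pair, Fezf2 read 78.9, 146 and 249 in wild type and at most 1.66 in the knockout. Fezf1 read 251, 143 and 174, against 97.7, 78.4 and 49.5 in the knockout. Across ages Fezf2 fell in the knockout (limma adjusted p = 0.000382), while Fezf1 was lower at all 3 ages with an adjusted p of 0.0508. Whether these probe sets lie in the deleted parts of the genes is not given in the sources used here, so they check the labels only in part.

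The promoters of the genes are shown first because the genes share a time course, described next. RefSeq promoter windows of GRCm38.p6, each running from 250 bases before to 50 bases after a start site, matched 7 of the 10 genes, with 10 windows. Mapt, Stmn2 and Gap43 had none. Dcx and Rtn1 are printed because they differed most between genotypes at E10.5, Stmn3 because its genotype difference turned direction between E9.5 and E10.5, Tubb3 as the neuronal tubulin and Map1b as the gene with the smallest rise. Capitals mark the E-box CAGATG on either strand (CATCTG is the same site read from the other strand) and the TATA motif TATAAA on either strand. The windows are Dcx at chrX:143933170-143933469 (minus strand), Tubb3 at chr8:123411303-123411602 (plus strand), Map1b at chr13:99516553-99516852, Stmn3 at chr2:181314451-181314750 and Rtn1 at chr12:72409005-72409304 (all minus strand).
Dcx: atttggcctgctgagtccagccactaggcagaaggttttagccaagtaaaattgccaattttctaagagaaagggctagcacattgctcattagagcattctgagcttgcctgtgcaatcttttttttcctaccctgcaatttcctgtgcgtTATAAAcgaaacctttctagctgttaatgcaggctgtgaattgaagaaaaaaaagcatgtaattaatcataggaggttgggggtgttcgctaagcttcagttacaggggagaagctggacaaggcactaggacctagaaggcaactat
Tubb3: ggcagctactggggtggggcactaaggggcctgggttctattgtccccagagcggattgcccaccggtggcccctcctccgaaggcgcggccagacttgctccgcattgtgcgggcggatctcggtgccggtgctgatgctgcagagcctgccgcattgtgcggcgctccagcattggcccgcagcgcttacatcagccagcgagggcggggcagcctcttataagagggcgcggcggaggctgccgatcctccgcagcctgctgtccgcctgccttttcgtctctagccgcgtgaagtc
Map1b: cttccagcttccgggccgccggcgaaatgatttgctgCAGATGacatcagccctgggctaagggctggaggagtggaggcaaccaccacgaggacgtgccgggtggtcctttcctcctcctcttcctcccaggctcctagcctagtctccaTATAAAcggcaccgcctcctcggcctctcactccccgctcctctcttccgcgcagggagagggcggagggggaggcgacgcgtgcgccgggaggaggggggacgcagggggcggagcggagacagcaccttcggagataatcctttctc
Stmn3: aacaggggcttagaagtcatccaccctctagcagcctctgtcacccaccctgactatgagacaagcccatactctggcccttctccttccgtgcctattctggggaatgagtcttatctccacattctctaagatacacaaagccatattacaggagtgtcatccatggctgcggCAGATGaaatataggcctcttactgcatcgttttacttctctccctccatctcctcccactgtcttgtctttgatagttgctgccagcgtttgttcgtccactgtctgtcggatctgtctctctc
Rtn1: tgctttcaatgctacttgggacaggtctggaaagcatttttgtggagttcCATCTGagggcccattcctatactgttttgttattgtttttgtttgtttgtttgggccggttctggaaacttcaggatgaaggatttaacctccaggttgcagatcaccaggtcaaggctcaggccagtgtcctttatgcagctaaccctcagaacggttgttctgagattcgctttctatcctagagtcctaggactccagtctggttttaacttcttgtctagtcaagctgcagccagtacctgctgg
Counted from the start site, CAGATG lay at -213 in Map1b, -75 in Stmn3 and -200 in this Rtn1 window, and TATAAA at -98 in Dcx and -99 in Map1b. Of the 10 windows, 3 held CAGATG, against 17.2% of all 32851 promoter windows of the same length. The general E-box CANNTG, which includes CAGATG and CAGCTG, was in the same 3 windows, against 72.3% of all windows. Of the Rtn1 windows, only the printed one held CAGATG or any other CANNTG, and the rest are not shown. CAGCTG was in 0 of the 10 (16.3% of all windows), and so were TTCAGCACC and GGACAGCGC, the left and right parts of the element bound by the neuronal repressor REST (0.371% and 0.405%). TATAAA was in 3 windows of 2 genes, of which 2 overlap at Dcx (13.6% of all). The GC box GGGCGG, not marked above, was in 5 windows of Tubb3, Map1b, Map2 and Rtn1 (35.7% of all). The windows differed in base composition, from 43% G and C in this Dcx window to 77.7% in Map2, against a median of 52.7% over all windows. These matches are letters in a window and nothing here measured binding.

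**Figure D1:**
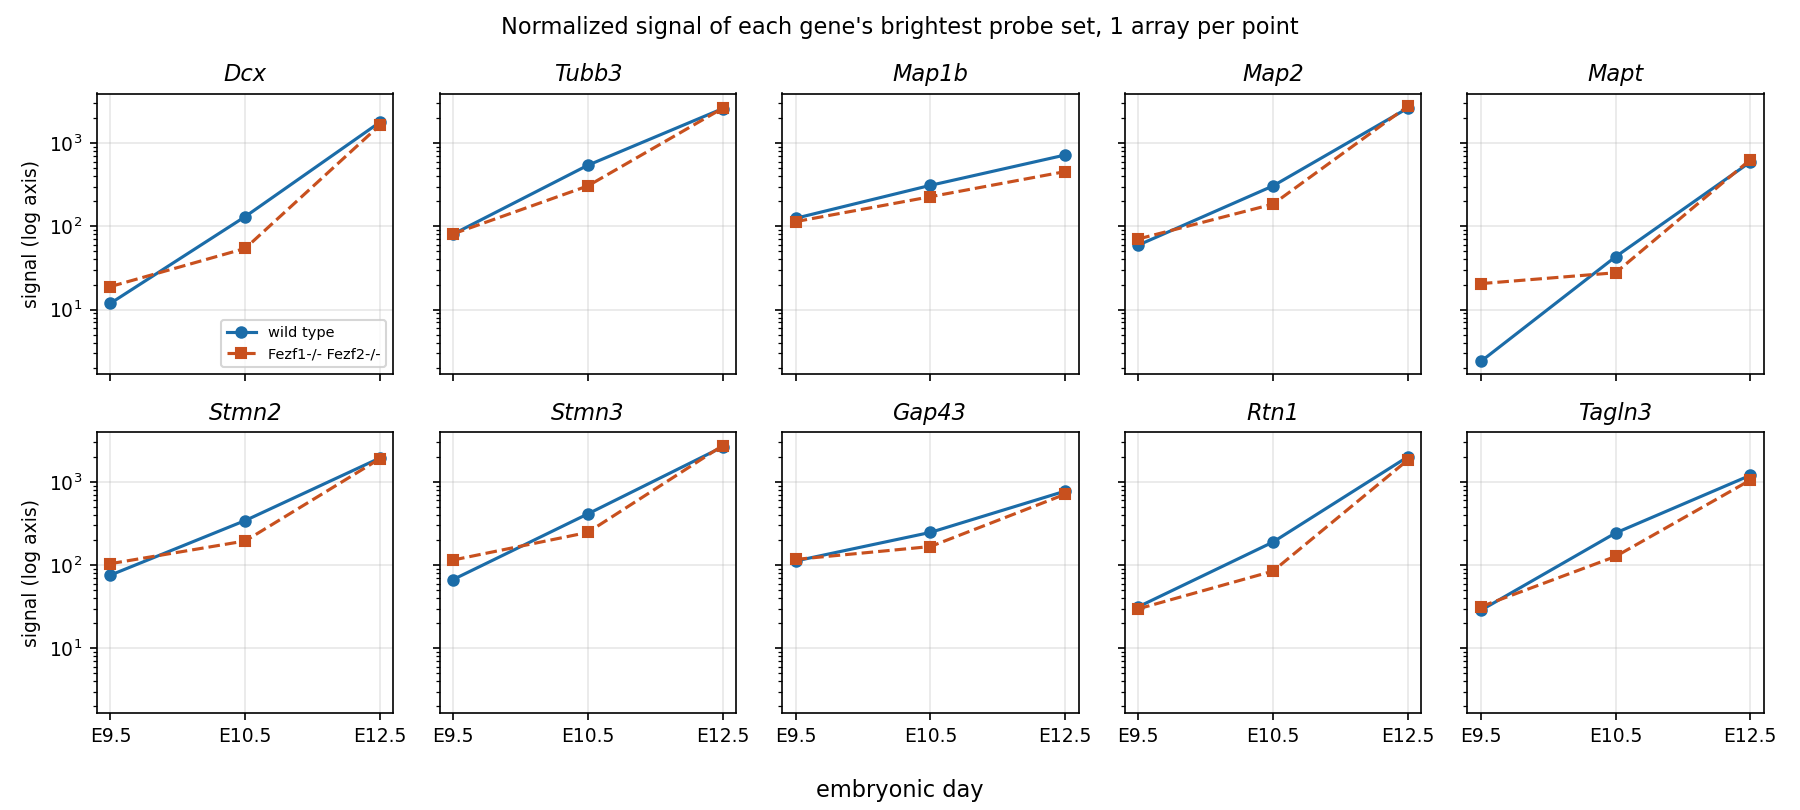
Normalized signal (log axis) of each gene's brightest probe set by age, with 1 array per point, solid blue lines with circles for wild type and dashed orange lines with squares for Fezf1-/- Fezf2-/-. Every line ends at E12.5 far above E9.5, and at E10.5 the knockout lies below wild type in 10 of 10 panels.

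The strongest feature of the 10 genes was their rise with age, in both genotypes. Each of the 23 probe sets was brighter at E12.5 than at E9.5 in wild type (log2 change 0.97 to 6.61, median 4.31) and in the knockout (1.46 to 6.03, median 4.05), while the median over all tested probe sets was -0.11 and -0.08. Of the 23 probe sets, 18 passed the filter on dim signals and were tested, and 18 of these 18 rose from E9.5 to E12.5. Over all 19593 tested probe sets 26.3% rose and 32.9% fell. Of the 18, 4 passed the filter only through their E12.5 signal (1 of Map2 and 3 of Mapt) and so had to differ, and the count is given as a description. The tested probe sets that passed otherwise had a limma adjusted p from 1.70e-07 to 2.52e-06. The 5 probe sets under the filter were 2 of Dcx and 1 each of Map1b, Map2 and Mapt. The error of an age change is how it varied between the genotypes. Markers of tissue outside the brain fell over the same ages, counted by the brightest probe set of each gene. Surface ectoderm markers fell in 11 of 12 tested genes and rose in 1 (median log2 change -3.04). Neural crest and head mesenchyme markers fell in 13 of 17 and rose in 1 (median -1.84). The part of this change in the rise of the 10 genes was not tested.

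Dcx encodes doublecortin, which binds and stiffens microtubules in migrating neurons. Its brightest probe set (1418139_at) read 11.9, 131 and 1787 in wild type, against 18.9, 54.3 and 1651 in the knockout, here and below from the youngest to the oldest embryos. The knockout was 1.38-fold higher at E9.5, 2.27-fold lower at E10.5 and 1.08-fold lower at E12.5. From E9.5 to E12.5 the gene rose by 6.32 ± 0.30 on the log2 scale, 79.8-fold (limma's moderated SE over both genotypes; adjusted p = 4.21e-07). A second probe set (1418141_at) read 20.8, 97.4 and 1105 against 14, 52.6 and 1093, and was lower in the knockout at E9.5 (-0.41) and at E10.5 (-0.81, 1.76-fold). The other Dcx probe sets were dim, at most 47.8 on any array, and differed by 0.06 and 0.12 at E10.5.

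Map1b, Map2 and Mapt encode the classical microtubule-associated proteins of axons and dendrites, Mapt being the gene for tau. Map1b (1450397_at) read 125, 311 and 720 in wild type, against 114, 227 and 455 in the knockout. It was already expressed at E9.5 and had the smallest rise of the 10 genes' brightest probe sets, 4.61-fold (2.20 ± 0.14, limma adjusted p = 1.72e-06). It was also the only brightest probe set of the 10 lower in the knockout by 0.5 or more at E12.5 (log2 difference -0.65, 1.57-fold). The other Map1b probe sets did not show that size: 1421851_at read 499 and 454 at E12.5 (-0.14), and the dim 1421850_at read 33.4 and 34.3 (0.03). Map2 (1434194_at) read 59.5, 306 and 2631 in wild type, against 70.5, 185 and 2775 in the knockout, and rose 38-fold (5.25 ± 0.19, adjusted p = 1.89e-07). Its knockout signal was lower at E10.5 and a little higher at the other ages. Of the other Map2 probe sets, all 3 were lower in the knockout at E10.5, by -0.27, -0.65 and -0.98. Mapt (1424719_a_at) read 2.38, 43.1 and 593 in wild type, against 20.5, 27.7 and 633 in the knockout, 40-fold higher at E12.5 than at E9.5 over both genotypes. Since this probe set passed the filter only through E12.5, no test of that change is given. Its E9.5 signals were both below the median of all values, 24, so the difference of 1.60 there was not counted. The other Mapt probe sets differed by -0.23, 0.38 and 0.46 at E9.5 and by -0.29, -0.02 and 0.71 at E10.5, so the gene's probe sets did not go the same way.

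Tubb3 encodes the beta-tubulin of neurons and has a single probe set (1415978_at). It read 80.6, 542 and 2596 in wild type, against 81.1, 306 and 2619 in the knockout. The genotypes differed by 0.01 on the log2 scale at E9.5 and at E12.5, and by -0.81 (1.75-fold lower in the knockout) at E10.5. The gene rose 29.9-fold from E9.5 to E12.5 (4.90 ± 0.18, limma adjusted p = 1.89e-07).

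Stmn2 and Stmn3 encode neuronal stathmins, which bind tubulin dimers in growing neurites. Stmn2 (1423281_at) read 75.8, 343 and 1937 in wild type, against 104, 195 and 1899 in the knockout, and its second probe set 44.3, 205 and 1662 against 39, 136 and 1655. At E10.5 both were lower in the knockout, by -0.80 and -0.57. At E9.5 they went opposite ways, by 0.42 and -0.16. Stmn3 (1435113_x_at) read 67, 412 and 2628 in wild type, against 115, 247 and 2722 in the knockout, and its second probe set (1460181_at) 18.6, 160 and 1106 against 31.9, 85.6 and 1088. Both Stmn3 probe sets were higher in the knockout at E9.5 (0.72 and 0.61) and lower at E10.5 (-0.73 and -0.86), and at E12.5 they differed by 0.05 and -0.02. From E9.5 to E12.5 the brightest probe set of Stmn2 rose 20.2-fold (4.34 ± 0.22) and that of Stmn3 28.4-fold (4.83 ± 0.25), with limma adjusted p of 5.94e-07 and 6.03e-07.

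Gap43, Rtn1 and Tagln3 complete the set with 1 probe set each. Gap43, the growth cone gene, read 112, 247 and 774 in wild type, against 117, 167 and 710 in the knockout. It rose 6.19-fold (2.63 ± 0.15, limma adjusted p = 9.41e-07), more than Map1b and less than the other 8 genes. Rtn1 encodes reticulon 1, a protein that shapes the endoplasmic reticulum and is abundant in neurons. It read 31.5, 189 and 1999 in wild type, against 29.8, 84.6 and 1829 in the knockout, with the knockout lower by 1.05-fold, then 2.15-fold, then 1.09-fold. It rose 51.6-fold (5.69 ± 0.22, adjusted p = 2.27e-07). Tagln3 encodes a neuronal member of the calponin family of actin-binding proteins. It read 28.6, 243 and 1199 in wild type, against 31.6, 127 and 1051 in the knockout, and rose 30.9-fold (4.95 ± 0.21, adjusted p = 2.90e-07). The genotypes thus stood closest in the youngest pair (0.12) and farthest apart at E10.5 (-0.90), with -0.19 in the oldest pair.

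At E10.5 the knockout was lower for the brightest probe set of 10 of the 10 genes and for 19 of the 23 probe sets. The median log2 difference was -0.57 over the 23 probe sets and -0.76 over the brightest of each gene (range -1.18 to -0.44), against 0.00 over all tested probe sets. With 1 array against 1 there is no test. Of the 23 probe sets, 14 (60.9%) were lower by 0.5 or more, against 5.61% of all tested probe sets. At least 2-fold, with the brighter signal above 24, 2 were lower (Dcx and Rtn1) and 0 higher. The shares of all tested probe sets were 0.817% lower and 0.684% higher. The 4 probe sets that were not lower were dim ones: 2 of Dcx, 1 of Map1b and 1 of Mapt, each under the filter. On the values as deposited, the median of all tested probe sets lay at 0.26 and that of the 23 at -0.33, or -0.60 relative to it. The brightest probe sets were still lower in 10 of 10 genes, but 0 probe sets reached 2-fold, and with a pseudocount of 32 also 0.

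Several other measures differed between these same E10.5 arrays. Xist, which is expressed from the inactive X chromosome of females, read 573 in wild type and 11.7 in the knockout. With wild type first, Xist read 725 against 453 at E9.5, and 9.87 against 17.6 at E12.5. Genes of the Y chromosome had signal on both E10.5 arrays. Again with wild type first, Kdm5d read 102 against 155, Eif2s3y 177 against 243 and Uty 68.4 against 101. The E10.5 pair is thus not simply female against male tissue, and the mix of sexes on each array was not tested. In the deposited values, 8 control probe sets for spiked-in polyadenylated RNA were compared. They repeat the same transcripts (dap, lys, phe and thr) and are not independent. They were 1.47 to 2.04 times brighter in the knockout array. These ratios are not scaled, and the trimmed mean of the whole deposited array was 74.3 in wild type and 91.2 in the knockout. The controls were compared at E10.5 only. Surface ectoderm markers were higher in the knockout for 10 of 12 tested genes, with a summed signal of 2224 against 1928. Genes listed as markers of cranial ganglia and placodes were higher for 5 of 7 tested genes (1245 against 1021). The 5 were higher by 0.14 to 0.58, while Neurog1 (182 in wild type and 124 in the knockout) and Tlx2 (73.5 and 41.3) were lower. Eya1 alone read 393 in wild type and 591 in the knockout. From E9.5 to E12.5 in wild type Isl1 went from 83.5 to 831, but Eya1 from 345 to 67.7 and Six4 from 280 to 20.5. The list thus does not stand for a single cell type. Head mesenchyme markers were higher for 11 of 17 (7276 against 6904). Blood and endothelium markers were higher for 7 of 12 (28292 against 28468), with a median log2 difference of 0.01. Over all tested genes 52.2% were lower in the knockout at E10.5, so the blood and endothelium count lay near the share of all genes. Neural progenitor markers were lower in the knockout for 14 of 18 tested genes, with summed signals of 20936 and 21556. Of the 4 that were higher, Hes5 differed most, with 371 in wild type and 848 in the knockout (2.26-fold). Its second probe set was higher by 0.59 on the log2 scale. At E9.5 Hes5 read 206 in wild type and 679 in the knockout. These counts go by sign and take in markers with almost no difference. Examples are Mcm2 (1010 and 1010), Pcna (6225 in wild type and 6207 in the knockout) and Hba-x (7409 and 7434). The part of any of these measures in the differences of the 10 genes was not tested.

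**Figure D2:**
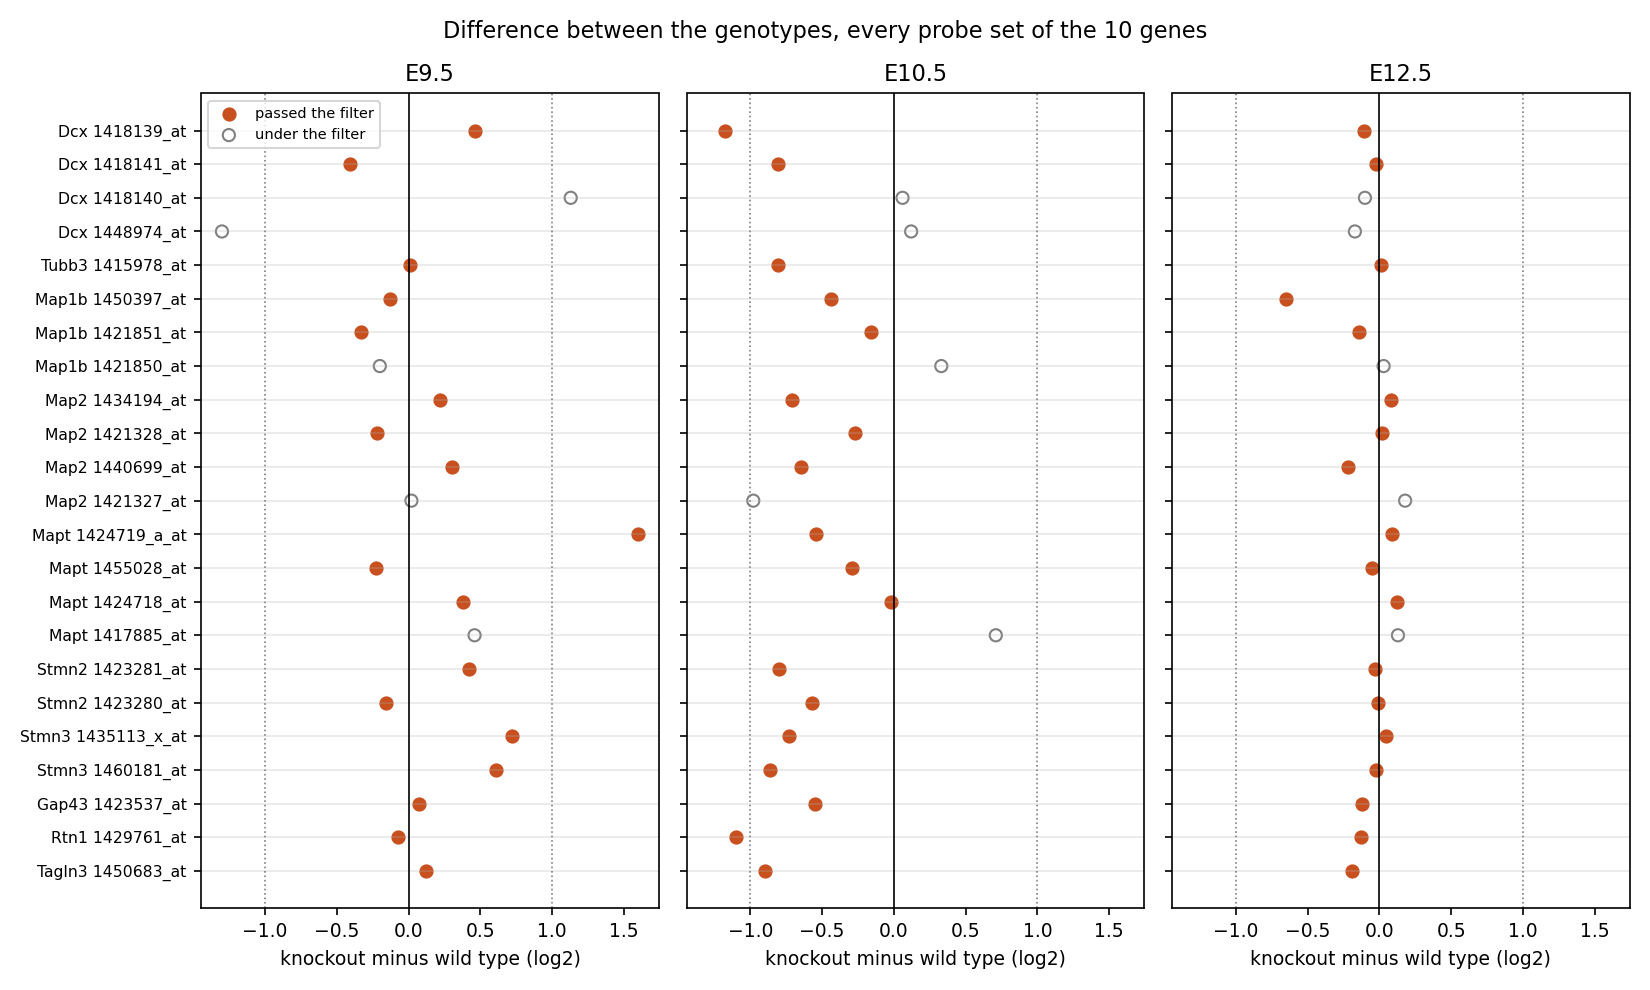
Log2 difference, knockout minus wild type, for all 23 probe sets, 1 panel per age, filled where the probe set passed the filter on dim signals and open where it did not, with dotted lines at 2-fold. At E10.5, 19 of the 23 points lie left of 0, while at E12.5 the points gather at 0 apart from Map1b at -0.65.

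At E9.5 and E12.5 the set showed no such shift to lower knockout signals. At E9.5, 14 of the 23 probe sets were higher in the knockout and 9 lower, with a median of 0.07. By 0.5 or more, 4 of the 23 were higher and 1 lower, against 1081 and 898 of all 19593 tested. Of the 10 brightest, 8 were higher and 2 lower (3 lower with a common trimmed mean), with a median of 0.17. The largest of these were Mapt (1.60), Stmn3 (0.72) and Dcx (0.46), all from wild-type signals of 67 or less. No probe set was counted as 2-fold different, against 0.709% higher and 0.633% lower over all tested probe sets. At E12.5, 14 of the 23 were lower and 9 higher, with a median of -0.02 and a range of -0.65 to 0.18. Again 0 were 2-fold different (0.327% higher and 0.240% lower over all). The direction at E12.5 depended on scaling: on the deposited values 1 of the 10 brightest was lower in the knockout, and relative to the median of all tested probe sets 6 of 10 were. The genes with the brightest E12.5 signals, Tubb3, Stmn3 and Map2, differed by 0.01, 0.05 and 0.08 there. Head mesenchyme markers differed too: 16 of 17 were higher in the knockout at E9.5 (summed signal 6587 against 4880) and 15 of 17 lower at E12.5 (1912 against 2810). Of all tested genes, 47.1% were lower at E9.5 and 46.4% at E12.5. The part of these markers in the values here was not tested.

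Across the 3 ages 0 of the 18 tested probe sets passed the genotype test, each with a limma adjusted p of 1, and 3 had an unadjusted p under 0.05. Over all 19593 tested probe sets 0.00510% passed as higher and 0.0255% as lower in the knockout, and 881 had an unadjusted p under 0.05. The error of this test is how the genotype difference varied over ages, so a difference at E10.5 alone counts as error. The 3 with an unadjusted p under 0.05 were Map1b (1450397_at, -0.41 ± 0.12, 3 pairs), Dcx (1418141_at, -0.41 ± 0.16) and Rtn1 (-0.43 ± 0.18), each lower in 3 of 3 pairs. Of the 23 probe sets, 6 (26.1%) were lower at all 3 ages, against 11.4% of all tested probe sets. Without the E10.5 pair the median over the probe sets was 0.01 instead of -0.19, and without the E9.5 pair -0.34.

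The 2 steps of the time course divided differently in the genotypes. From E9.5 to E10.5, 16 of 18 tested probe sets rose over both genotypes (limma adjusted p from 9.56e-05 to 0.0432), against 16.2% of all tested probe sets that rose and 13.6% that fell. The other 2 were Mapt probe sets (0.43 and -0.53, adjusted p = 0.139 and 0.143). From E10.5 to E12.5, 18 of 18 rose, a count that again holds the 4 probe sets that passed the filter only through E12.5 and is a description. Those that passed otherwise had a limma adjusted p from 1.61e-06 to 0.000219. Over all tested probe sets 19.6% rose and 27.5% fell. In the first step the median change of the 10 brightest was 2.42 in wild type and 1.16 in the knockout, and it was larger in wild type for 10 of 10. In the second step it was 2.56 in wild type and 3.34 in the knockout, larger in the knockout for 9 of 10, with Map1b the exception. A second Map1b probe set (1421851_at) changed by 0.33 in wild type and 0.50 in the knockout in the first step. In the second step it changed by 1.37 and 1.39. Both steps share the E10.5 arrays, so these are the E10.5 differences seen from either side, and the difference between genotypes in a step was not tested. On the deposited values, whose median over all tested probe sets moved by -0.39 in the first step, 13 probe sets rose and 2 fell.

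**Figure D3:**
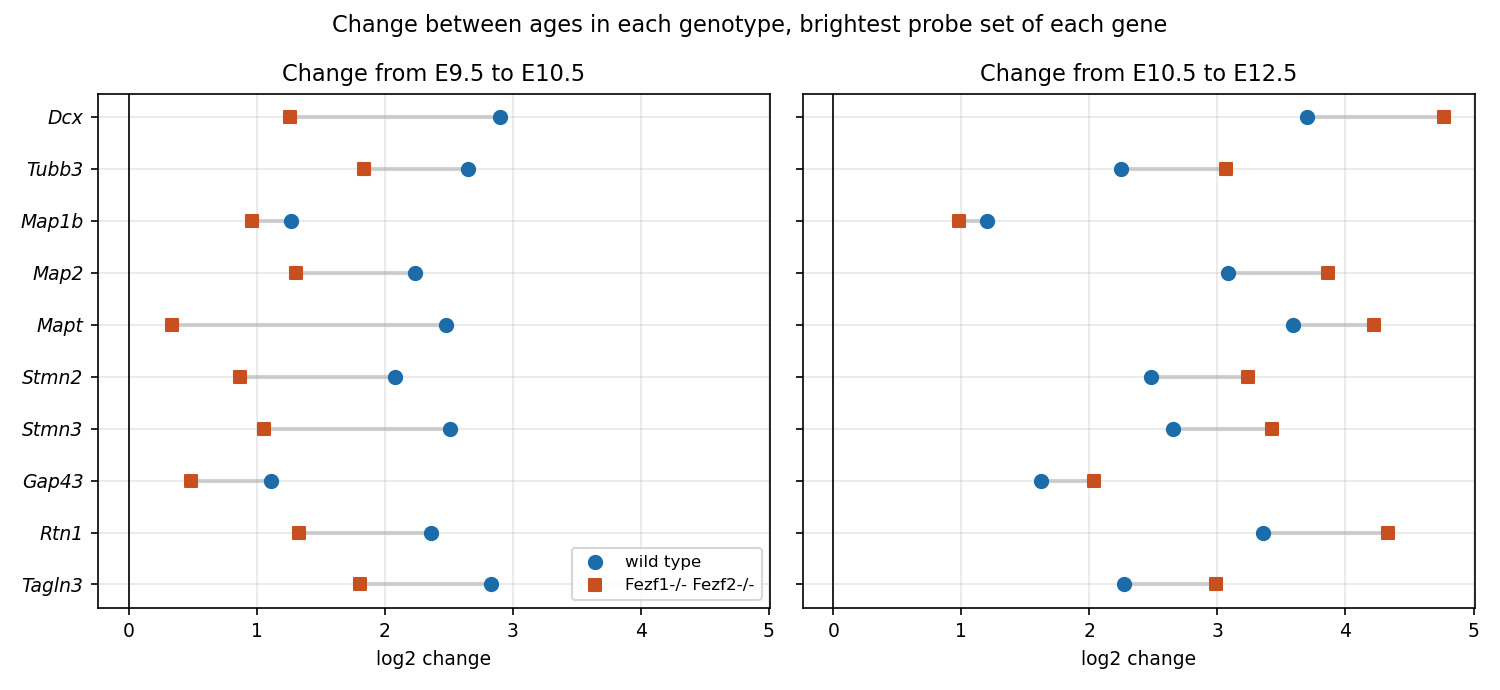
Log2 change from E9.5 to E10.5 (left) and from E10.5 to E12.5 (right) for the brightest probe set of each gene, blue circles for wild type and orange squares for the knockout, 1 array per age and genotype. In the left panel wild type lies to the right for 10 of 10 genes, and in the right panel the knockout lies to the right for 9 of 10.

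The E10.5 signal as a share of the E12.5 signal restates the second step above, from the same arrays, and adds no separate support. It is given to show how far each gene had come by E10.5. In wild type the E10.5 signal was 43.2% of the E12.5 signal for Map1b, 32% for Gap43, 20.9% for Tubb3 and 20.3% for Tagln3. It was 17.7% for Stmn2, 15.7% for Stmn3 and 11.6% for Map2, and lowest for Rtn1 (9.46%), Dcx (7.35%) and Mapt (7.27%). Tubb3 and Tagln3, and likewise Dcx and Mapt, stood within 1 percentage point of each other, and there is no replicate to separate neighbours. Second probe sets gave 37.9% for Map1b, 14.5% for Stmn3, 14.3% for Map2, 12.3% for Stmn2, 8.81% for Dcx and 8.41% for Mapt. The order in the middle thus also depends on the probe set. In the knockout the share was smaller for 9 of 10 genes, such as 3.29% for Dcx, 4.62% for Rtn1 and 11.7% for Tubb3, and larger for Map1b (49.8%). The second Map1b probe set did not show this, with 37.9% in wild type and 37.2% in the knockout. The median of the 10 was 16.7% in wild type and 9.66% in the knockout.

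Other genes of microtubules, growth cones and young neurons were counted by the brightest probe set of each gene, from lists of the pathway's members. At E10.5 the median over all 11097 tested genes was -0.01 and 52.2% were lower in the knockout. By that measure early neuron genes outside the cytoskeleton stood at -0.37 (29 of 33 lower), intermediate filaments at -0.38 (4 of 5), reticulons and transgelins at -0.35 (5 of 5) and growth cone and actin genes at -0.22 (22 of 25). Tubulins stood at -0.15 (8 of 11) and neuronal kinesins at -0.14 (11 of 15). The general microtubule-binding proteins (-0.04, 12 of 22) and the group of further stathmins, severing enzymes and lissencephaly genes (-0.03, 8 of 13) lay near the median of all genes. In none of these lists did a gene pass the genotype test across ages.

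**Figure D4:**
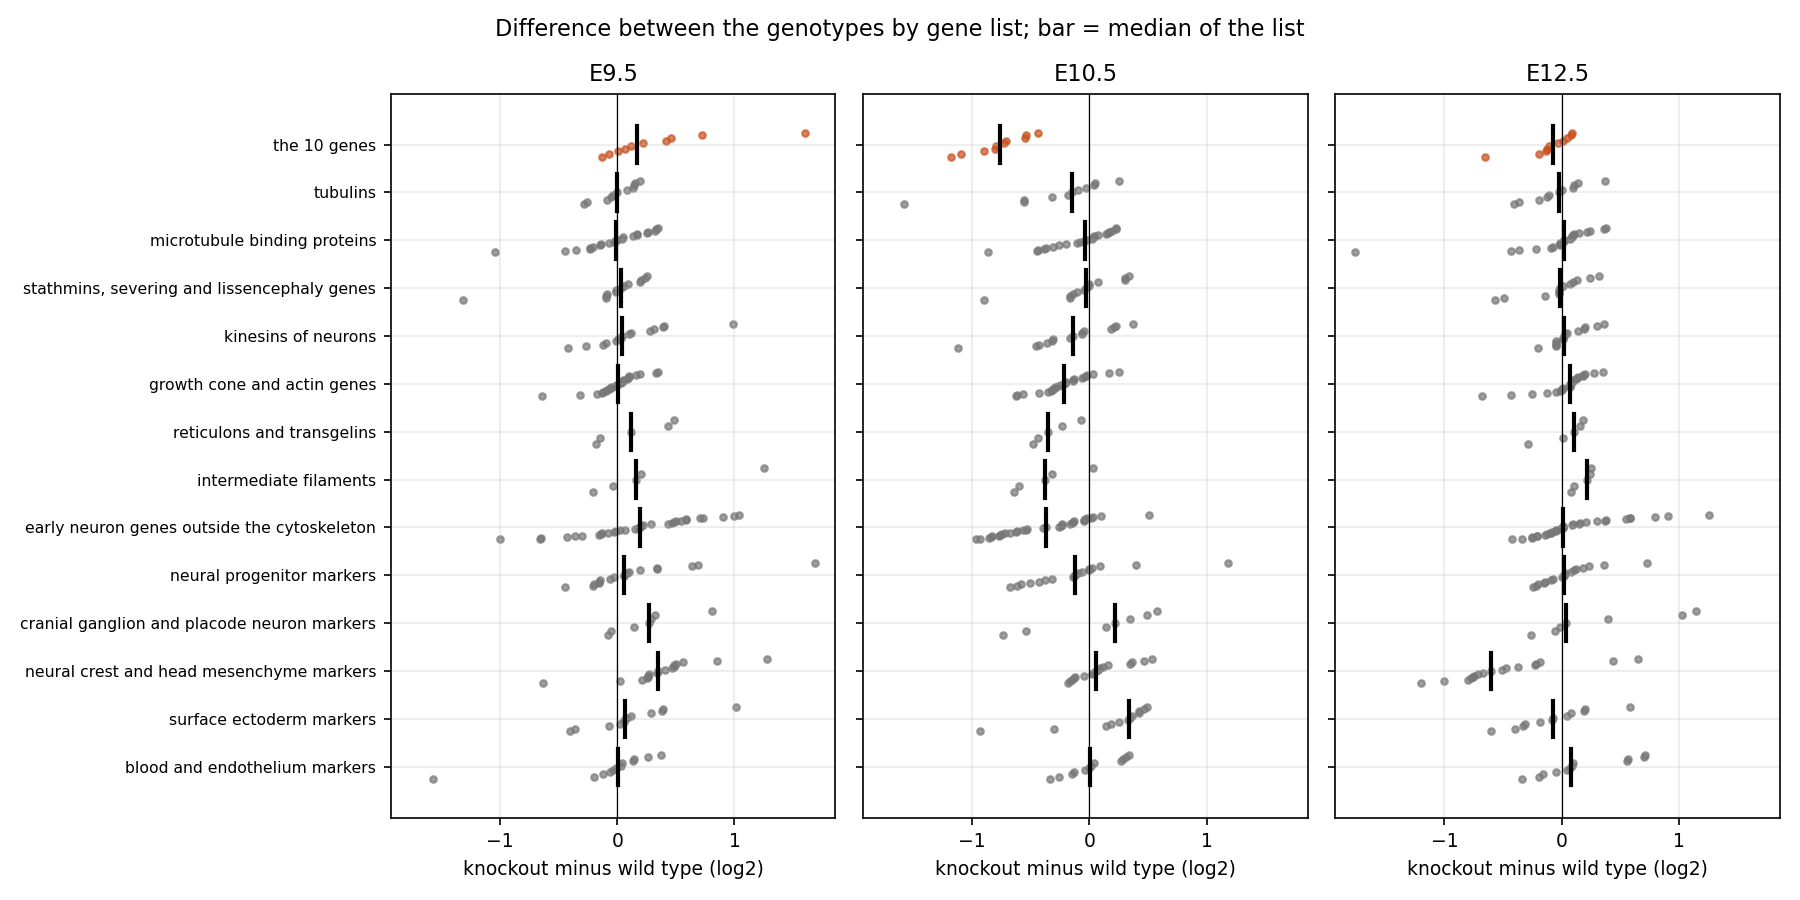
Log2 difference, knockout minus wild type, by age, for the tested genes of each list, 1 point per gene by its brightest probe set, with a bar at the list's median and the 10 genes in orange. At E10.5 the bar of the 10 genes lies at -0.76 and that of early neuron genes at -0.37.

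The rise with age divided the lists as well. From E9.5 to E12.5, 25.5% of all tested genes rose and 36.7% fell. The count for early neuron genes was 33 of 33, of which 8 passed the filter only through E12.5 and so had to be higher there. Intermediate filament genes rose in 5 of 5, and growth cone and actin genes in 17 of 25 (3 fell), none of them passing only through E12.5. Tubulins rose in 6 of 11 and fell in 3, and microtubule-binding proteins rose in 14 of 22 and fell in 3. Kinesins rose in 11 of 15 (2 of these 15, Kif1a and Kif5a, passed only through E12.5) and fell in 2. The further stathmins, severing enzymes and lissencephaly genes rose in 6 of 13 and fell in 4. Reticulons and transgelins rose in 2 of 5 and fell in 2. Neural progenitor markers also rose, in 11 of 18, and fell in 2. Tubb2b and Tubb2a, beta-tubulins of the developing brain, rose by 2.34 ± 0.14 and 2.08 ± 0.14 (limma adjusted p = 1.42e-06 and 2.57e-06), with 0.59 in the second Tubb2a probe set. Tubb6, a beta-tubulin outside neurons, fell by 1.95 ± 0.14 (adjusted p = 3.20e-06), with a second probe set at 0.07. Klc1, a kinesin light chain, rose by 2.90 ± 0.17 (adjusted p = 9.41e-07), with 0.45 in its second probe set. Kif5a, a kinesin heavy chain of neurons that passed the filter only through E12.5, read 3.07 and 3.34 at E9.5 and 265 and 230 at E12.5. Its second probe set changed by 0.86 on the log2 scale. Crmp1, a growth cone protein, rose by 3.11 ± 0.16 and Ncam1, an adhesion molecule, by 3.01 ± 0.18 (adjusted p = 5.94e-07 and 1.19e-06). Nsg2, an endosomal protein of neurons, rose by 5.06 ± 0.30 and Ina, the neurofilament protein alpha-internexin, by 4.08 ± 0.18 (adjusted p = 1.07e-06 and 3.01e-07). Second probe sets gave 1.79 for Ncam1, 2.17 for Nsg2 and 3.42 for Ina.

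Of the 96 tested genes in the 7 other cytoskeletal lists, 6 (6.25%) differed at least 2-fold between the genotypes at some age, against 2.77% of all tested genes. Stmn4, a further neuronal stathmin, read 25.1, 152 and 683 in wild type, against 6.17, 78.1 and 458 in the knockout. It was lower in the knockout at all 3 ages (-1.32, -0.90 and -0.57), and its limma adjusted p across ages was 0.244. It rose by 4.82 ± 0.20 from E9.5 to E12.5 (adjusted p = 2.68e-07). Tubb4a, a beta-tubulin, read 55.9, 57.2 and 130 against 44.9, 14.8 and 169, which was 3-fold lower in the knockout at E10.5. Kif7, a kinesin of hedgehog signalling in cilia, read 72.1 in wild type and 29.6 in the knockout at E10.5. Map1a, a relative of Map1b, read 63.5 and 27.6 at E9.5 (-1.04), where its second probe set went the other way (0.31). Mid1, a microtubule-bound ubiquitin ligase, read 662 and 191 at E12.5 (-1.76), where its second probe set gave 0.54. Nes, which encodes the progenitor filament nestin, read 71.3 in wild type and 178 in the knockout at E9.5 (1.25), with a second probe set at -0.15.

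Among early neuron genes outside the cytoskeleton the differences that reached 2-fold were not at E10.5. Insm1, a zinc-finger factor of newborn neurons, stood 2.05-fold above wild type at E9.5 (105 against 48) and 1.7-fold below it at E10.5 (156 against 269). Ebf1, a transcription factor of differentiating neurons, was 2.4-fold higher at E12.5 (219 against 87.6). Neurod6, a factor of cortical neurons, was 2.43-fold lower at E12.5 (141 against 351) and did not pass the filter. At E10.5 Nhlh2 read 110 in wild type and 58.5 in the knockout, and Nsg2 101 and 60.7.

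The genes whose pattern was most like the set were found by Pearson's r over the 6 arrays with the mean standardized profile of the 10 genes. Of 11087 other genes, the 8 closest were Bdh1, Dclk1, Selenok, Snd1, Wbp1, Uchl1, Prkacb and Rufy3, with r of 0.998 to 0.999. Dclk1 encodes a doublecortin-like kinase and read 94.8, 224 and 591 in wild type against 98.3, 163 and 595 in the knockout. Uchl1, a ubiquitin hydrolase abundant in neurons, read 177, 499 and 1697 against 181, 337 and 1349. Rufy3, a protein of growing axons, read 54.1, 280 and 1526 against 69.5, 196 and 1608, the largest rise of the 8 (4.53). At E10.5 the 8 differed by -0.06 (Prkacb) to -0.55 (Uchl1), a direction set by choosing them for likeness to a profile that is itself lower in the knockout there. High likeness was common, since 111 genes (1%) had r of 0.99 or more and 13.2% had 0.9 or more, and all points share the same 6 arrays. Within the set r with the mean profile was lowest for Map1b (0.969) and Mapt (0.979) and 0.993 or more for the other 8.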

How the data were processed

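Groups were taken from the labelled genotype and age. The deposited table holds a linear MAS5 intensity for each probe set, per the submitters' processing notes. Its scaling target and the software version are not stated there. Arrays were quantile normalized with limma 3.58.1 in R 4.3.3, log2(signal + 6.5) was taken (6.5 is the lower quartile of deposited values), and probe sets with 1 gene symbol in the platform annotation (932 name several, 9211 none) were tested if their mean log2 value exceeded 4.88, the median of all 45101.

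limma's lmFit and eBayes with a trend were fitted to all 6 arrays with age and genotype as terms, leaving 2 residual degrees of freedom (9.72 after moderation), with Benjamini-Hochberg adjustment over 19593 probe sets and a threshold of 0.05. The scripts were tested on simulated data. At a single age, 2-fold differences were counted with no test. The number of arrays limits the precision.

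The members and lists were chosen with earlier results of these data known. Beyond the 10 genes, those named passed the genotype test, differed 2-fold at some age or changed most with age (at most 6 per list). Alternatives were no scaling, a common trimmed mean, pseudocounts of 1 and 32, other filters, only the brightest probe sets, no trend, no block and leaving out arrays.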

Additional observations from a re-analysis of the deposited data

Results flagged for a closer look

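In 3 probe sets the genotype difference went one way at E9.5 and the other way at E10.5 by at least 0.5 on the log2 scale, and the difference between the ages was not tested, each age being 1 array against 1. For Mapt (1424719_a_at) the knockout minus wild-type difference was 1.60 at E9.5 and -0.54 at E10.5, with E9.5 signals of 2.38 and 20.5, both below the median of all values. For Stmn3 it was 0.72 and -0.73 in 1435113_x_at, and 0.61 and -0.86 in 1460181_at.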

How the results depend on the processing

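Of 127 alternative values of the main results, 101 stayed close to the reported value and 26 moved. For a median, close meant within 0.139 on the log2 scale, the median residual SD, with no check of sign. For a count it meant an equal or similar number, whatever the direction of the probe sets counted. The rise from E9.5 to E12.5 and the lower knockout median at E10.5 kept their direction in each alternative run. On deposited values the member medians were -0.02 across ages (all tested probe sets 0.18), -0.33 at E10.5 (0.26) and 0.20 at E12.5 (0.21) for genotype, and 4.62, 0.80 and 3.77 for E12.5 minus E9.5, E10.5 minus E9.5 and E12.5 minus E10.5. The reported values were -0.19, -0.57, -0.02, 4.18, 1.11 and 3.04. A pseudocount of 1 gave 4.72 and 1.31 for the first pair of age changes. A pseudocount of 32 gave 2.97, 0.69 and 2.58, and -0.41 for genotype at E10.5. The 2-fold count at E10.5 was 0 instead of 2 both on deposited values and with a pseudocount of 32. With only the brightest probe sets the medians were 4.93 and 1.78, and -0.76 at E10.5, and 10 passed each age test, by construction fewer than the 18, 16 and 18.

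Leaving out an age moved the genotype median between -0.34 and 0.01. With the arrays of 1 genotype the first step ran from 0.87 to 1.32 and the second from 2.65 to 3.41. Leaving out the E10.5 arrays from E12.5 minus E9.5 was chosen after seeing the data, and 18 passed. Across ages, leave-one-out ranges that crossed 0 were -0.65 to 0.17 for Dcx, -0.40 to 0.01 for Tubb3, -0.32 to 0.15 for Map2, -0.22 to 0.85 for Mapt, -0.41 to 0.20 for Stmn2 and -0.34 to 0.39 for Stmn3. Deposited values reversed Map2 (0.04) and Stmn2 (0.05), and a pseudocount of 32 reversed Stmn3 (-0.02). None of these had passed the genotype test. For Mapt, E10.5 minus E9.5 no longer passed without a filter or without a trend (limma adjusted p = 0.0717 and 0.108). The cause of these shifts was not tested. The genotype test paired the arrays by age, and without age as a block 0 of the 18 tested probe sets passed as well. Dim signals, such as those at E9.5 for Dcx and Mapt, limit what small differences show.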
